A study of Mus musculus with 6 samples.

Results

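Klf2, Klf4 and Klf5 are the Krüppel-like factor genes that take part in the pluripotent state of mouse embryonic stem cells. Their members were taken by gene symbol from the platform annotation of the array. This gave 4 probe sets for 3 genes, of 12422 probe sets tested, with 1 probe set each for Klf2 and Klf5 and 2 for Klf4. The other genes with a Klf symbol, 9 genes with 14 probe sets, served as the family background. Transcript levels were measured on 1-colour Affymetrix MG U74Av2 arrays in HDAC1 knock out cells (3 arrays) and in wild-type cells (3 arrays), derived from knockout and wild-type embryos of the same litter and left untreated. HDAC1 is a class I histone deacetylase, an enzyme that removes acetyl groups from histones within corepressor complexes. All cells grew in serum-containing medium, either with leukemia inhibitory factor (LIF) on gelatin or without it on feeder cells, and the labels do not say which sample had which. Any difference in culture between the knockout and wild-type arrays therefore cannot be told apart from genotype. The arrays of a genotype are numbered as biological replicates, but no label says whether they came from separate lines or cultures, so the p-values speak only of the spread among these 6 arrays, part of which may be technical.

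Krüppel-like factors are transcription factors that bind GC-rich and CACCC-type DNA sequences through zinc fingers at their carboxy-terminal end. In mouse embryonic stem cells KLF2, KLF4 and KLF5 bind many of the same sites next to NANOG, OCT4 and SOX2, can stand in for one another in part, and help to keep the cells in the naive state. Klf4 is induced by LIF through STAT3, Klf2 depends more on OCT4, and Klf5 responds to LIF as well. Outside stem cells KLF2 is known from endothelium and resting T cells, KLF4 from the surface epithelium of gut and skin, and KLF5 from gut crypts and vascular smooth muscle.

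The deposited intensities had been scaled by the authors to a common level, with a mean of 500.3 on every array after trimming, so a shift shared by all transcripts would not show. Log2 signals were correlated across the 7548 probe sets above the background level given below, which are not independent replicates. Correlations ran from 0.939 to 0.958 for arrays of the same genotype and from 0.92 to 0.934 for arrays of different genotypes. Hdac1 had signals of 118.3, 110.1 and 197.1 in the knockout arrays, against 2323.4, 2199.7 and 2407.8 in the wild-type arrays. A background level of 116.4 was taken from 19 controls for transcripts of bacteria and yeast. Over all probe sets 279 were called higher and 203 lower, and centring on the median, another way of scaling, gave 344 higher and 129 lower. The median log2 difference of X-linked genes exceeded that of autosomal genes by 0.27, and as no label gives the sex of the lines, genotype and sex chromosomes cannot be told apart. Klf2, Klf4 and Klf5 themselves lie on autosomes.

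The stretches just upstream of Klf2 and Klf4 are shown because both genes changed in the same direction, and because they carry the GC-rich sequence that the family binds. Each is the 250 bases before the start site from RefSeq (build GRCm38.p6), read 5′ to 3′ on the strand of the gene. The Klf2 stretch lies at chr8:72318812-72319061 on the plus strand and the Klf4 stretch at chr4:55532476-55532725 on the minus strand. Capitals mark matches, on either strand, to the GC box GGGCGG, the core CACCC, and the form of a site for MEF2 factors (CTA and TAG with any 4 bases between them). Klf5, on chromosome 14, changed in the same direction. The reference sequences held no entry for it, so its upstream stretch was not examined.
Klf2: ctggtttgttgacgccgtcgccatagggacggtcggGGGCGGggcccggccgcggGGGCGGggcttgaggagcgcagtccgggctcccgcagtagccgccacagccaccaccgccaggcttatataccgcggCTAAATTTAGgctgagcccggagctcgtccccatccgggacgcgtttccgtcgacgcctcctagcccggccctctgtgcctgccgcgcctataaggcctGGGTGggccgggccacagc
Klf4: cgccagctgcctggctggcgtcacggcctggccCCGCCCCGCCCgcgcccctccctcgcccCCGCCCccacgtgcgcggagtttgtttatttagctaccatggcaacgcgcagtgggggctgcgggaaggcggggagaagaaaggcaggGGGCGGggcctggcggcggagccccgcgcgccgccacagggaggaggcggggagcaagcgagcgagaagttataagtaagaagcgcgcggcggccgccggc

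The Klf4 stretch held 4 GC boxes, the first pair sharing 1 base, and the Klf2 stretch held 2. Among 32851 upstream stretches of the same length, 4.09% had at least 4 and 16.7% had at least 2. Of 14 such stretches of Klf genes, these 2 included, 11 held a GC box, against 32.7% of all stretches. CACCC matched once in Klf2, as its reverse complement close to the start site, and not in Klf4. Of all stretches 52% held it, as did 11 of the 14 of Klf genes. The MEF2 form matched once in Klf2, 118 bases before the start site, and in 3.2% of all stretches. The STAT form TTCNNNGAA had no match in either window and was found in 7.02% of all stretches. The GC content was 71.2% for Klf2 and 74% for Klf4, against a median of 52.4%, and 92.2% and 95.1% of all stretches had less. How many GC boxes stretches of like GC content hold was not counted. These matches describe the letters of the windows only.

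All 3 genes were higher in the HDAC1 knockout cells, each by close to 2-fold. Of the 4 probe sets 3 rose, and the fourth, the dim second probe set of Klf4, was at background on every array. The test was limma across all probe sets on log2(signal + 16), with Benjamini-Hochberg adjustment over all 12422 and a call at an adjusted p under 0.05. Over all probe sets 2.25% were called higher, and 3.62% of the 7548 whose mean signal lay above background. The knockout and wild-type arrays did not overlap for the 3 probe sets that rose, which was so, with knockout higher, for 9.4% of all probe sets.

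Klf4, a factor of the LIF and STAT3 branch and one of the genes used to reprogram somatic cells, had signals of 3530.1, 3848.9 and 3946.2 in the knockout arrays, against 2139.3, 1411.3 and 1790.3 in the wild-type arrays. The lowest knockout array was 1.65 times as bright as the highest wild-type array, and most of the spread lay among the wild-type arrays. The means were 3775.1 ± 217.7 in knockout and 1780.3 ± 364.1 in wild-type cells (SD, n = 3 each), and Klf4 rose 2.14-fold, with a 95% interval of 1.74-fold to 2.62-fold. On the log2 scale this was 1.10 ± 0.13 (SE), and limma's adjusted p was 0.00103. Only 105 of the 7548 probe sets above background had a larger positive difference. The second probe set of Klf4 had signals of 2.1 to 3.9 in knockout and 2.1 to 27.9 in wild-type arrays, all under background, so no fold is given for it.

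Klf5, which acts in self-renewal of stem cells and in proliferating epithelium, had signals of 3497.6, 3338.0 and 3349.6 in the knockout arrays, against 1707.4, 1655.6 and 2005.1 in the wild-type arrays. The knockout arrays lay within 5% of one another (highest over lowest 1.05), and the lowest of them was 1.66 times as bright as the highest wild-type array. The means were 3395.1 ± 89.0 in knockout and 1789.4 ± 188.6 in wild-type cells (SD, n = 3 each). Klf5 rose 1.90-fold, with a 95% interval of 1.65-fold to 2.18-fold, a log2 difference of 0.92 ± 0.09 (SE) and limma's adjusted p at 0.000255. Of the 3 genes it had the smallest p and the smallest standard error.

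Klf2, a factor that is kept up by OCT4 in stem cells and by blood flow in endothelium, also rose, with a wider spread. Its signals were 652.7, 776.5 and 526.5 in the knockout arrays, against 346.6, 366.0 and 318.6 in the wild-type arrays. Here the spread lay among the knockout arrays, whose coefficient of variation was 19.2%, against 6.93% in wild type. The means were 651.9 ± 125.0 in knockout and 343.7 ± 23.8 in wild-type cells (SD, n = 3 each). Klf2 rose 1.84-fold, with a 95% interval of 1.41-fold to 2.40-fold, a log2 difference of 0.88 ± 0.17 (SE) and limma's adjusted p at 0.0188. Its call rested on single arrays, since it was lost without HDAC1 knockout replicate 1 (adjusted p = 0.0781) or 2 (0.104) and without wild type replicate 1 (0.0561) or 3 (0.0517).

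**Figure D1:**
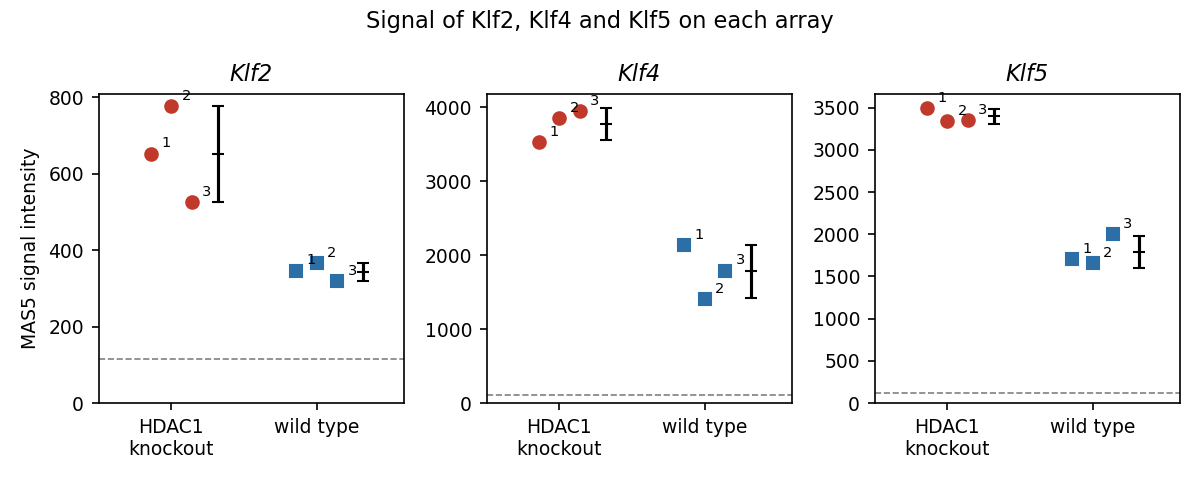
MAS5 signal intensity of Klf2, Klf4 and Klf5 on each array, with HDAC1 knockout arrays as circles and wild-type arrays as squares, numbered by replicate, and the mean ± SD of 3 arrays beside them (dashed line, background level of 116.4). For each gene every knockout array lies above every wild-type array, and Klf5 has the smallest spread among knockout arrays, from 3338.0 to 3497.6.

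Calls for all 3 genes depended on the variance model. With eBayes without a trend, which gives bright and dim probe sets the same prior variance, none of the 3 was called (adjusted p = 0.0549 for Klf5, 0.0751 for Klf4 and 0.121 for Klf2), and 82 probe sets of all were called higher. An exact two-sided permutation test over the 6 arrays, taken for each gene alone, gave p = 0.1 for each, the smallest value that 3 against 3 arrays allow.

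The sizes of the changes were compared within arrays, as the log2 difference between the brightest probe sets of 2 genes on the same array. The change of Klf4 exceeded that of Klf5 by 0.17 ± 0.19 (SE) on the log2 scale, with a 95% interval of -0.35 to 0.69. The change of Klf2 minus that of Klf4 was -0.22 ± 0.27, with an interval of -0.97 to 0.53. The change of Klf2 minus that of Klf5 was -0.05 ± 0.21 (interval -0.63 to 0.54), and its sign turned without HDAC1 knockout replicate 3 (0.09) or wild type replicate 2 (0.05). By an exact two-sided permutation test the p-values of these 3 pairs were 0.4, 0.6 and 0.9, each 0.9 after adjustment over the 3 pairs. With 1 array left out, the change of Klf4 minus that of Klf5 ran from 0.07 to 0.35 and that of Klf2 minus Klf4 from -0.35 to -0.02. Without wild type replicate 1, Klf4 minus Klf5 was 0.35 ± 0.08 (SE, exact permutation p = 0.1, the smallest that 3 against 2 arrays allow), and without wild type replicate 2 it was 0.07. With all 6 arrays no pair differed by more than the spread between arrays, and the intervals still allow differences of over 0.5 on the log2 scale.

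Within a genotype the 3 genes did not share their order over the arrays. Among knockout arrays, Klf2 was highest on replicate 2 and lowest on replicate 3, Klf4 was highest on replicate 3 and lowest on replicate 1, and Klf5 was highest on replicate 1. Among wild-type arrays, replicate 2 was the highest for Klf2 and the lowest for Klf4 and Klf5. Deviations from the genotype mean reached -0.28 on the log2 scale for Klf2 in knockout cells and -0.31 for Klf4 in wild-type cells, smaller than the differences between genotypes of 0.88 to 1.10.

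Among the other Klf genes, Klf10 alone was called. Of the 14 probe sets of the 9 other Klf genes, 2 were called higher and 0 lower, where 2.25% of all probe sets were higher and 1.63% lower, and both belong to Klf10. By the brightest probe set of each gene, 1 of 9 rose, against 2.7% of all 8251 genes, and their median log2 difference was -0.05, against -0.04 for all genes. At an unadjusted p under 0.05, Klf9 would be added as higher and Klf12 as lower. No share of all genes was counted at that looser threshold, so the shares above do not apply to it.

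Klf10, a factor induced early by TGF-beta, had signals of 1956.6, 1619.5 and 1667.1 in the knockout arrays, against 1198.2, 1036.8 and 1125.7 in the wild-type arrays, on its brighter probe set. It rose 1.55-fold there (log2 difference 0.63 ± 0.10, SE, adjusted p = 0.00715 by limma). Its second probe set, designed from the same transcript record, had signals of 1343.4, 1204.7 and 1034.2 in knockout and 458.3, 643.3 and 619.8 in wild-type arrays. It rose 2.06-fold (log2 difference 1.04 ± 0.15, adjusted p = 0.00357 by limma). On neither probe set did the genotypes overlap. Without a trend neither was called (adjusted p = 0.156 and 0.0944).

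Klf9, a factor induced by hormones in many tissues, had 2804.1 ± 112.4 in knockout and 2379.4 ± 41.9 in wild-type cells (SD, n = 3 each) on its brighter probe set. These arrays did not overlap, but the gene was not called (log2 difference 0.24, adjusted p = 0.147 by limma). Klf3, a repressor that works with CtBP, had 852.3 ± 96.6 in knockout and 718.0 ± 18.5 in wild-type cells. Its arrays did not overlap either, with an adjusted p of 0.403 by limma. The second probe sets of Klf9 and Klf3 had log2 differences of 0.01 and 0.09. None of these 4 probe sets was called.

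Klf6, an early-response factor of many cell types that includes fibroblasts, had 402.8 ± 20.5 in knockout and 524.6 ± 123.6 in wild-type cells, with overlap (log2 difference -0.34, adjusted p = 0.447 by limma). Klf7 averaged 97.5 ± 54.7 in knockout cells, under background, though 2 knockout arrays lay above it. In wild-type cells Klf7 averaged 174.8 ± 17.5. Its arrays did not overlap between genotypes, but it was not called (log2 difference -0.90, adjusted p = 0.412 by limma). Klf12, a repressor of the Klf3 type, had signals of 10.7, 18.6 and 49.8 in knockout and 69.4, 62.8 and 220.4 in wild-type arrays. These did not overlap either, and 1 wild-type array lay above background (adjusted p = 0.2 by limma). The share of all probe sets without overlap is given above only for knockout higher, so it does not apply to Klf7 and Klf12. Klf13 had log2 differences of -0.05 and -0.01 on its 2 probe sets, the larger of opposite sign (0.03) after median centring. Klf1, the erythroid factor, had a log2 difference of 0.21, which was -0.04 without wild type replicate 3. Klf17, known from oocytes, had -0.29 on its brighter probe set and was at background on the other.

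**Figure D2:**
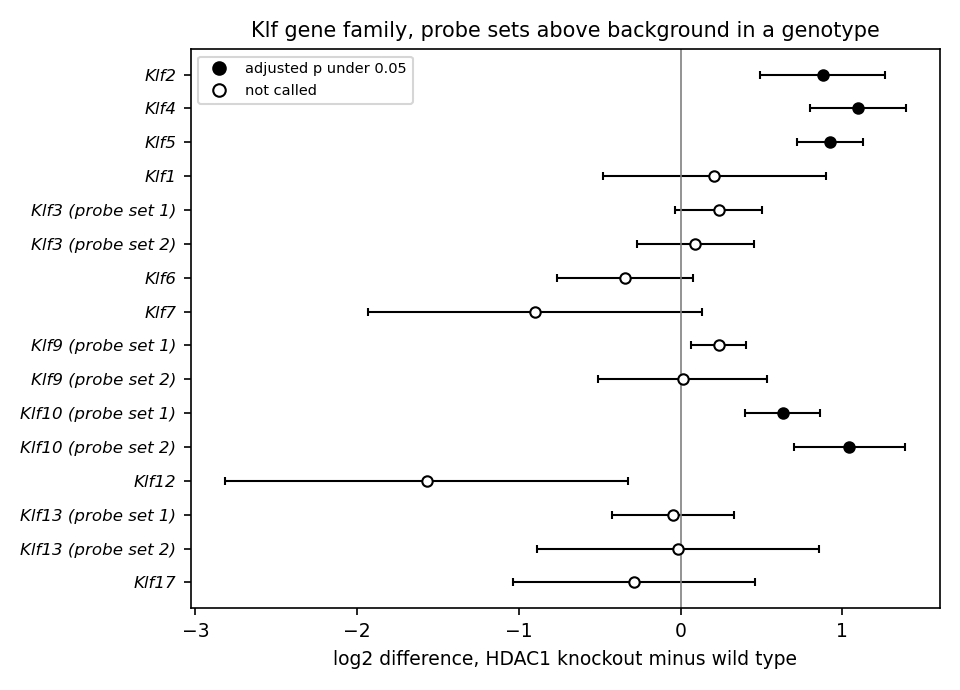
Log2 difference, HDAC1 knockout minus wild type, with its 95% interval for each Klf probe set above background in at least 1 genotype, with Klf2, Klf4 and Klf5 on top (filled, adjusted p under 0.05). Besides these, the 2 probe sets of Klf10 are filled, at 0.63 and 1.04.

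The Sp factors form the other branch of the same zinc finger family and bind the same GC boxes. Of the 9 listed, 3 had a probe set for 1 gene and 0 were called by limma, against 4.58% of all genes, nor was any at an unadjusted p under 0.05, and a count over 3 genes cannot be told from that background. Sp1 had 781.7 ± 23.3 in knockout and 842.7 ± 137.8 in wild-type cells (log2 difference -0.09), and Sp3 had 866.8 ± 21.2 in knockout and 922.8 ± 124.8 in wild-type cells (log2 difference -0.08, of opposite sign at 0.02 without wild type replicate 2). Sp4 was at background in both.

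Of 24 measured genes that act upstream of, beside or downstream of the 3 factors in pluripotency, 10 rose, 1 fell and 13 had no call. All 24 were above background, and 45.8% were called, against 4.58% of all genes and 6.47% of genes above background. Without a trend 5 were called higher, and Fgf4, Fbxo15, Socs3, Sox2 and Nr0b1 lost their calls (adjusted p = 0.182, 0.138, 0.141, 0.31 and 0.287). The median log2 difference was 0.47, against -0.04 for all genes. The list was chosen with earlier results of these arrays known, in which pluripotency genes were higher, so its direction is not independent evidence.

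In the LIF branch upstream of Klf4, the receptor and kinase genes had no call, and these were named after their values were seen. Stat3, the factor that LIF activates, had signals of 1132.8, 1145.1 and 978.2 in knockout arrays, against 1012.0, 971.1 and 1470.8 in wild-type arrays (log2 difference -0.06, adjusted p = 0.92 by limma). Lifr, the LIF receptor gene, had 332.6 ± 32.3 in knockout and 223.2 ± 37.5 in wild-type cells. Its arrays did not overlap between genotypes, yet it was not called (log2 difference 0.55, adjusted p = 0.273 by limma). Il6st, which encodes the shared receptor chain gp130, had a log2 difference of -0.19, and Jak1 had -0.03. The signs for Stat3 and Jak1 turned after median centring (0.02 and 0.05). Socs3, a feedback inhibitor that STAT3 induces, rose 1.51-fold, with signals of 973.7, 1073.1 and 1014.1 in knockout and 620.5, 677.0 and 712.9 in wild-type arrays (adjusted p = 0.0132 by limma), while its second probe set was not called (adjusted p = 0.117). The Socs3 call was lost for 3 of the 6 arrays left out.

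Among the transcription factors that share sites with the KLF proteins, Tbx3, which acts beside Klf4 in carrying LIF signals to the core network, had the largest rise of the list. Its signals were 681.7, 656.8 and 599.6 in knockout arrays, against 217.6, 196.5 and 197.2 in wild-type arrays, 3.01-fold higher (adjusted p = 0.000439 by limma). Tfcp2l1, another LIF target, rose 2.36-fold (adjusted p = 2.88e-05), and Nanog, a core factor, had 11376.4 ± 471.6 in knockout and 5394.3 ± 196.7 in wild-type cells (adjusted p = 2.22e-05). Second probe sets of Tfcp2l1 and Nanog also rose. Zfp42 (Rex1) rose 2.23-fold, Tcl1, a coactivator of AKT, 2.26-fold, Fgf4, a growth factor controlled by OCT4 and SOX2, 1.71-fold, and Fbxo15, an OCT4 target, 1.61-fold. Sox2 rose 1.40-fold (adjusted p = 0.04) and the X-linked Nr0b1 1.39-fold (adjusted p = 0.0342), with calls that were lost for 4 and 5 of the 6 arrays left out.

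The gene that fell was Gbx2, a homeobox factor also placed downstream of LIF and STAT3. It had signals of 558.7, 457.9 and 494.9 in knockout arrays, against 1342.8, 1263.1 and 1279.7 in wild-type arrays, 2.53-fold lower (log2 difference -1.34 ± 0.11, SE, adjusted p = 8.94e-05 by limma). The direction is opposite to that of Klf4, Tfcp2l1 and Tbx3, and the arrays did not overlap. Esrrb, whose gene is bound by the KLF proteins, and Pou5f1, which encodes OCT4, were named after their values were seen. Esrrb had 388.2 ± 14.5 in knockout and 212.5 ± 51.5 in wild-type cells, arrays that did not overlap, yet was not called (adjusted p = 0.0779 by limma), and Pou5f1 had 10682.3 ± 380.7 in knockout and 10009.8 ± 1115.0 in wild-type cells (log2 difference 0.10, adjusted p = 0.706).

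**Figure D3:**
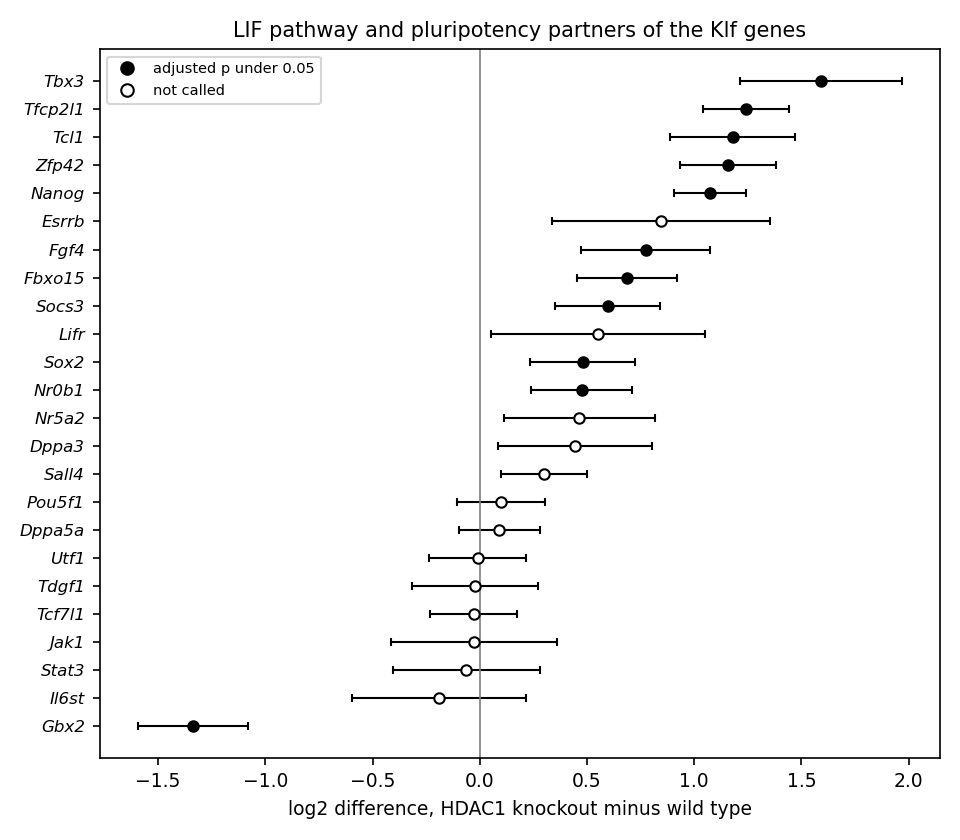
Log2 difference, HDAC1 knockout minus wild type, with its 95% interval for the 24 measured LIF pathway and pluripotency genes, sorted by size (filled, adjusted p under 0.05). Of them 10 are filled to the right of 0 and Gbx2, at -1.34, is the 1 filled to the left.

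Genes for proteins that modify KLF proteins or work with them were called at a share near that of all genes. Of 16 measured kinases, ubiquitin ligase components, MEF2 factors, acetyltransferases and corepressors, 0 were called higher and 1 lower, 6.25% against 4.58% of all genes. At an unadjusted p under 0.05, Hdac2 and Sin3a would be added as higher and Ctbp2 as lower. The 4.58% does not apply to that looser threshold, at which all genes were not counted. The gene that fell was Mef2d, a factor of the family that activates Klf2 through the kinase ERK5. It had 807.5 ± 63.6 in knockout and 1116.4 ± 9.3 in wild-type cells (log2 difference -0.46, adjusted p = 0.0343 by limma), and was no longer called whichever of the 6 arrays was removed (adjusted p up to 0.132). Mapk7, which encodes ERK5, and Map2k5, its activating kinase, had log2 differences of -0.28 and 0.17 without a call. Of the corepressors, Ctbp2 had a log2 difference of -0.24 on its brighter probe set (adjusted p = 0.245) and -0.35 on the other, which was called (adjusted p = 0.0395), Sin3a had 0.29 (adjusted p = 0.174), and Hdac2 had 1723.6 ± 102.4 in knockout and 1266.4 ± 179.2 in wild-type cells (adjusted p = 0.0636). Apart from Mef2d, the genes of this group were named after their values were seen.

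Of the targets that KLF2, KLF4 or KLF5 are known to control in other tissues, 2 were called lower and none higher by limma. The list did not separate activated from repressed targets, so a direction does not say whether a target followed the Klf genes. Of 9 measured, 0 were called higher and 2 lower, against 2.7% and 1.88% of all genes. A count of 0 higher among 9 genes cannot be told from that share. At an unadjusted p under 0.05 there were 2 higher, and no share of all genes was counted at that looser threshold. The smooth muscle genes Tagln and Acta2, known to be controlled by KLF4 and KLF5 in vascular smooth muscle, were those that fell. Tagln had signals of 264.0, 219.8 and 236.5 in knockout arrays, against 1152.6, 1045.7 and 945.9 in wild-type arrays, 4.15-fold lower (adjusted p = 2.88e-05 by limma). Acta2 had 209.2 ± 59.2 in knockout and 534.4 ± 102.0 in wild-type cells (adjusted p = 0.0133), and lost its call without wild type replicate 2. Both genes also mark fibroblasts. The endothelial KLF2 targets Nos3 and Thbd and the T cell target S1pr1 were at background on every array. Cdkn1a, the p21 gene that KLF4 activates in epithelium, had 1950.0 ± 149.0 in knockout and 1999.4 ± 286.8 in wild-type cells (log2 difference -0.03, of opposite sign at 0.05 after median centring). The KLF5 targets Pdgfa and Ccnd1 had log2 differences of 0.30 and -0.20, and Itgb7, a KLF2 target in lymphocytes, had 0.37, none of them called. Apart from Tagln and Acta2, the genes of this group were named after their values were seen.

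The cells carried the stem cell markers Pou5f1, Sox2, Nanog and Zfp42 at high signal in both genotypes. Markers of feeder fibroblasts were lower in the same knockout arrays. Of 24 measured, 5 fell and 0 rose, or 20.8% called, against 4.58% of all genes called and 1.88% called lower. Tagln and Acta2, already counted above as targets in other tissues, are among the 5. The summed signal of the 24 markers was 16492 to 17012.9 in knockout and 21978.4 to 23054.3 in wild-type arrays. The defining markers Col1a1, Col1a2, Dcn and Thy1 were above background in both, with Col1a1 at 467.9 ± 17.5 in knockout and 1010.5 ± 106.6 in wild-type cells and Col1a2 at 1376.3 ± 64.4 in knockout and 1365.8 ± 367.0 in wild-type cells. Of the 24, 4 were at background in both genotypes and no defining marker was at 0, where Col1a2, Dcn and Thy1 were named after their values were seen. Markers of differentiated cells gave 0 calls among 15 by limma, where 4.58% of all genes were called. Of the 15, 6 had means under background in both genotypes, and a count of 0 among 15 genes cannot be told from the 4.58%. At an unadjusted p under 0.05 Sox17 and Kdr would be higher and Pax6 lower, a looser threshold at which all genes were not counted. The summed signal of the 15 markers was 2898.5 to 3557.8 in knockout and 2482 to 3125.2 in wild-type arrays. The 3' to 5' signal ratio of beta-actin was 1.04 to 1.09 in knockout and 1.15 to 1.21 in wild-type arrays. The part of these differences in the Klf2, Klf4 and Klf5 values was not tested. In bulk samples, fewer cells of a type and less RNA per cell cannot be told apart.

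The genes whose profiles came nearest to each of the 3 were found by the root mean square distance between log2 profiles over the 6 arrays, each centred on its mean, among 5683 other genes above background. As all profiles here are dominated by the step between genotypes, nearness says mainly that a gene rose by a similar amount. Nearest to Klf2 were Ly75, an endocytic receptor (0.10), Cetn2, a centriole protein (0.13), and Arih2, a ubiquitin ligase (0.14). Nearest to Klf4 were the X-linked Praf2 (0.10), Hccs, an enzyme that attaches heme to cytochrome c (0.13), and Fgd1, an activator of CDC42 (0.14). Nearest to Klf5 were the X-linked Tsx, with wild-type arrays under background, Camk2b, a calcium-dependent kinase, and the DNA damage kinase gene Atm, each at a distance of 0.08.

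By this measure the 3 genes were not each other's nearest neighbours. Klf5 was the 25th nearest gene to Klf4 (distance 0.21) and the 65th nearest to Klf2 (0.21). In reverse, Klf4 was the 99th and Klf2 the 109th nearest to Klf5. Klf2 and Klf4 were 0.29 apart, with Klf4 the 257th nearest to Klf2 and Klf2 the 104th nearest to Klf4. The median distance to all genes was 0.53 for Klf2 and Klf5 and 0.63 for Klf4. Of the 10 nearest genes, 3 for Klf2, 4 for Klf4 and 4 for Klf5 lay on the X chromosome, which holds 3.05% of the genes compared. X-linked genes were higher as a class (median log2 difference 0.23, against -0.04 for autosomal genes). The X-linked share among genes that rose by a like amount was not counted. Of the genes named here, Ly75 and Tsx were not called (adjusted p = 0.0608 and 0.257 by limma), and the others were. Removing 1 array ended the call of Atm in 5 of 6 cases, of Cetn2 in 4, of Hccs in 2 and of Camk2b in 1. Praf2 had 864.7 ± 69.9 in knockout and 412.7 ± 45.1 in wild-type cells, and Camk2b had 533.5 ± 26.1 in knockout and 262.8 ± 19.1 in wild-type cells.

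**Figure D4:**
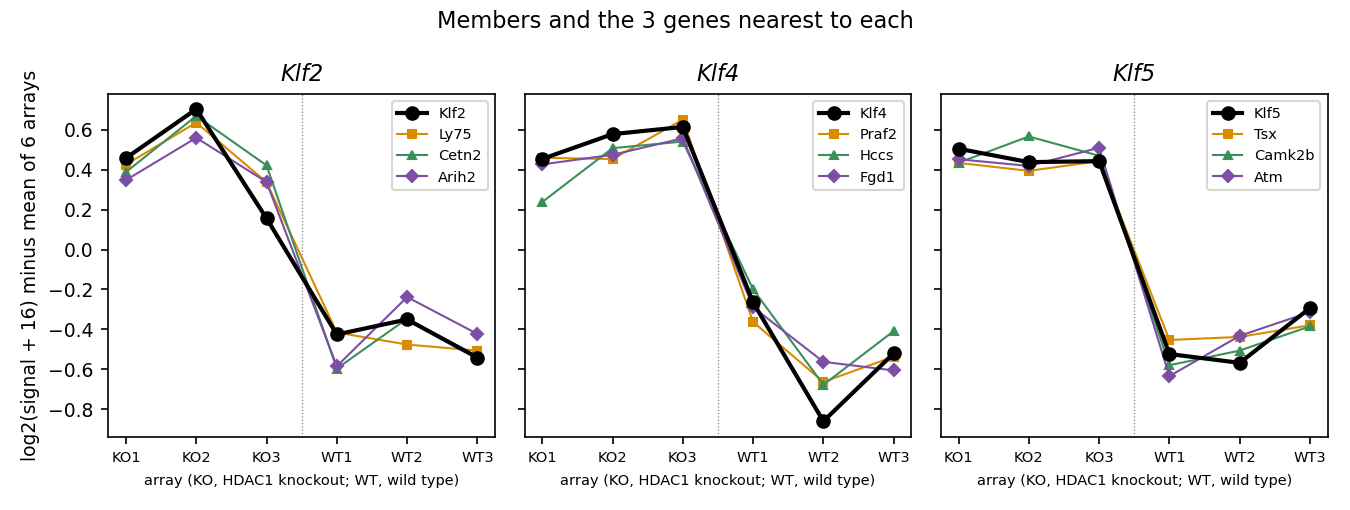
Centred log2(signal + 16) of Klf2, Klf4 and Klf5 (black) and of the 3 genes nearest to each, over 3 HDAC1 knockout arrays (left) and 3 wild-type arrays (right). Each gene steps down between the genotypes, and within a genotype Klf2 peaks on knockout replicate 2 while Klf4 is lowest on wild-type replicate 2.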

How the data were processed

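The authors deposited 1 linear signal intensity for each probe set and array, computed with MAS5, per the submitters' processing notes. No version or settings were given in the sources used here, and no detection calls were used. Trimmed means (2% off each end) lay within 5% of one another, so no further scaling was applied. Of 12488 probe sets, 66 Affymetrix controls were left out. Symbols were those of the platform annotation, brought up to date with RefSeq gene identifiers (GRCm38.p6): 10833 tested probe sets carried 1 symbol (10817 found in RefSeq), 396 carried several and are not named, and 1193 carried none. The 95th percentile of 19 bacterial and yeast controls set the background. The arrays' experiment headers were identical and show no batch.

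The test was limma 3.58.1 (R 4.3.3) on log2(signal + 16), with lmFit and trended eBayes, over all 6 arrays, whose number limits the precision. Folds are on this scale and understate changes of dim probe sets. The brightest probe set stood for a gene in lists and profiles. Adjusted p-values are limma's unless a permutation test is named. In simulated data built from the 12422 probe sets of this comparison, 73% of those above background given a 2-fold change and 91% of those given a 4-fold change were called with the right sign.

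Members, lists and tests were chosen with earlier results of these data known. Named genes are all Klf genes above background, the called members of each list or else up to 4 with the smallest p, the 3 genes nearest to each member, and Hdac1. For any other gene the text says that its values had been seen. Alternatives were other pseudocounts, quantile normalization, median centring, filters on dim probe sets, other variance models, weighted arrays, a replicate block, each array left out, and averaged probe sets of a gene.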

Additional observations from a re-analysis of the deposited data

How the results depend on the processing

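Klf2, Klf4 and Klf5 were higher under all 16 alternatives, with log2 differences of 0.75 to 1.02, 0.94 to 1.24 and 0.87 to 1.01. Filters on dim probe sets, other variance models and the replicate block leave the log2 difference as it was. As the genotypes did not overlap, leaving out 1 array could not turn the direction either. Klf4 and Klf5 lost their call only without a trend (1.10 and 0.92), and Klf2 (0.88) there and with 4 single arrays left out (0.75 to 1.02 over the 6). Without a trend, 0 members, 0 other Klf probe sets, 5 higher pluripotency partners, 0 lower regulators and 1 lower target of other tissues were called. With 1 array left out, 7 to 9 partners were called higher, 0 to 2 regulators higher and 0 lower, and 1 to 2 targets lower. Also, 1 regulator was called higher with median centring, without the dimmest 25% or 50% and with array weights (1 each), and 0 lower with median centring, robust estimation or the replicate block. The change of Klf2 minus that of Klf5 ran from -0.19 to 0.09 with 1 array left out. The cause of these shifts was not tested.

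The replicate number as a block kept the calls of Klf2, Klf4 and Klf5 (adjusted p = 0.0331, 0.00239 and 0.00132), with 8 partners higher, and 119 against 203 probe sets of all called lower. Deviations of same-numbered arrays correlated at -0.053, -0.012 and -0.083, so the numbers were not taken as pairs. Without a trend 82 probe sets were higher and 50 lower, and with 1 array left out 150 to 246 and 98 to 174.

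Signs of uncalled genes turned after median centring for Cdkn1a (0.05), Jak1 (0.05), Klf13 (0.03) and Stat3 (0.02). With 1 array left out they ran from -0.11 to 0.08 for Cdkn1a, -0.19 to 0.09 for Jak1, -0.04 to 0.50 for Klf1, -0.13 to 0.11 for Klf13, -0.17 to 0.02 for Sp3 and -0.17 to 0.13 for Stat3. Of 749 values of 47 named results that are no members, 666 kept direction and call. Signal over background limits Klf7, Klf12, Klf17 and the second Klf4 probe set.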
